A study of Mus musculus with 2 samples.

Results

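Hox genes encode the homeodomain transcription factors that give cells along the head-to-tail axis their positional identity, and their levels were compared here in newborn back skin with and without Sdr9c7. The set was chosen by name alone, as every gene on the array named for cluster a, b, c or d and a paralog number, without antisense transcripts. It held 39 of the 31044 gene names on the array, covered by 44 probes at 62 spots. A gene table of the mouse genome also lists 39 such genes. The study profiled dorsal skin of P0 mice on the C57BL/6J background that were Sdr9c7-/- (KO) or wild type (WT). Sdr9c7 encodes a dehydrogenase that the study's title places in acylceramide oxidation for the skin barrier. Each genotype was represented by 1 one-colour array, labelled with Cy3 from 200 ng of total RNA, and RNA from 5 animals was pooled per array. The deleted part of Sdr9c7 and the level of the back at which skin was cut are not given in the sources used here.

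Mammalian Hox genes lie in 4 clusters, and within each the order of the genes follows the order in which they are used along the body. Low paralog numbers serve the hindbrain and neck, middle numbers the trunk, and the highest numbers the lumbar and tail regions, the ends of the limbs and the genitalia. Adult and newborn skin cells, fibroblasts above all, keep part of the Hox combination of the site they came from. Hoxc13 is set apart by its additional use in hair and nails wherever these form.

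With 1 array per genotype there was no replicate check and no test, and array and genotype cannot be told apart. Signals are given relative to the 75th percentile of all probes on the same array, so that 1 equals that percentile. Differences are log2 values of KO minus WT, and the error after ± is the scanner software's own error of the signal carried to that scale, which covers the measurement of these 2 arrays and no variation between animals. Signals of different genes come from different probes and are not set against each other. Sdr9c7 itself had a relative signal of 0.0479 on the KO array and 0.324 on the WT array, 6.78-fold lower in KO. The probes well above background made up 76.8% on the KO array and 74.9% on the WT array, and no probe was saturated. The series' design text names the tissue epidermis, but markers of dermal fibroblasts, muscle and fat were well above background on both arrays, so the RNA is described as whole skin. In such pooled tissue, fewer cells of a type and less RNA per cell cannot be told apart.

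Most Hox genes gave a signal in newborn back skin of both genotypes, and most of those that did not lie at the far posterior end. Over the whole array, 22719 of the 31044 gene names were well above background on both arrays. Of the 39 Hox genes, 33 were well above background on both arrays. Among paralogs 1 to 3, 7 of 8 genes were measured in this sense, the exception being Hoxb1, a gene of the hindbrain. All 15 genes of paralogs 4 to 8 and all 10 genes of paralogs 9 to 11 were measured. Of the 6 genes of paralogs 12 and 13, only Hoxc13 was above background on both arrays. Hoxa13, Hoxb13, Hoxd12 and Hoxd13, which serve the digits, genital tract and tail, were below background on both, for Hoxa13 with both of its probes. Hoxc12 was above background on the WT array alone.

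By cluster, 10 of 11 genes were measured in cluster a on chromosome 6, 8 of 10 in cluster b on chromosome 11, 8 of 9 in cluster c on chromosome 15 and 7 of 9 in cluster d on chromosome 2. Hoxb1 was printed at 10 positions, of which 3 were above background on the KO array and 2 on the WT array. Its spots ran from 0.00277 through a median of 0.00456 to 0.0106 on the KO array, and from 0.00275 through a median of 0.00619 to 0.00701 on the WT array. Most of its spots were not above background on either array, so Hoxb1 was read as not well above background and given no fold. The ranges of the arrays overlapped, and 1 of the 10 spots was higher on the KO array. The lowest signal counted as well above background was 0.00427 on the KO array and 0.00563 on the WT array.

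**Figure D1:**
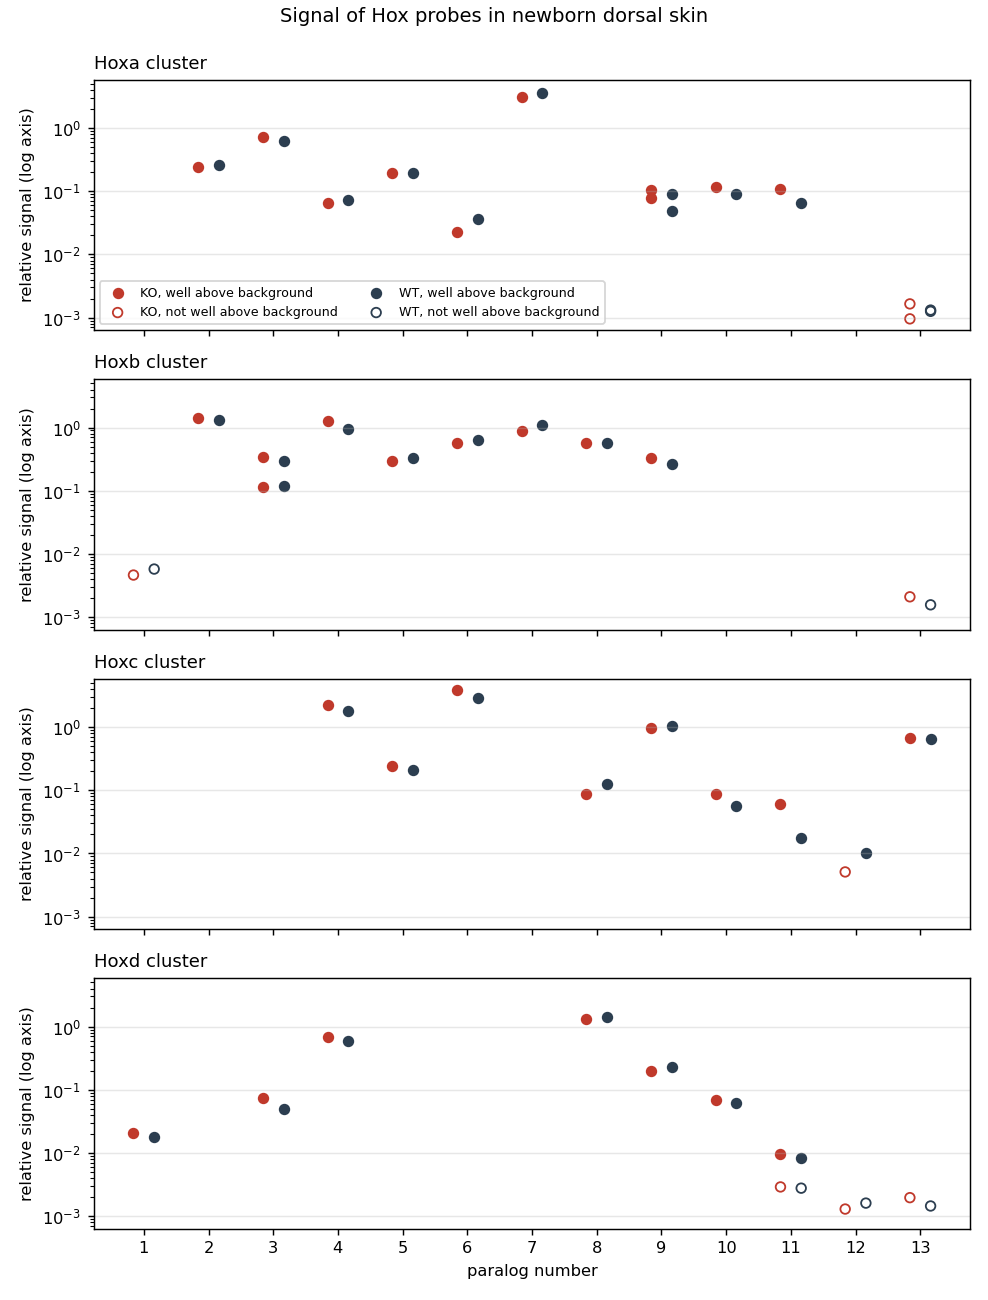
Relative signal (vertical log axis, 1 being each array's 75th percentile) of Hox probes on the KO array (red) and the WT array (dark), by paralog number with a panel per cluster; filled points are well above background and open points are not. Probes at the same paralog number belong to the same gene, and the open points lie at Hoxb1, at paralogs 12 and 13 and at a probe of Hoxd11, with Hoxc12 open in KO alone.

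Across the 33 measured genes the log2 signals of KO and WT correlated at r = 0.981, against 0.994 across all 22719 measured genes. Both are descriptions across genes of the same pair of arrays, and each gene's probe sets much of its signal on both. For 17 of the 33 genes the difference lay within its scanner error, which is 51.5% of them, against 58.0% of all measured genes. The median Hox difference was 0.10, against -0.04 over all measured genes, with 19 Hox genes higher and 14 lower in KO. Across other ways of processing that kept all 33 genes, between 17 and 21 were higher. In all measured genes, 43.1% had a log2 difference above 0, counted with the main scaling alone. Scaling on the median of probes above background, which gave the 21, also moved the median of all genes from -0.04 to 0.0033.

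Hoxc11 alone differed by at least 2-fold, and it was higher in KO. In all measured genes, 0.528% were at least 2-fold higher and 1.36% at least 2-fold lower in KO. At 1.5-fold, Hoxa11, Hoxc10 and Hoxc11 were higher, 9.09% of the Hox genes against 2.36% of all measured genes. Hoxa6 was the gene at least 1.5-fold lower, 3.03% of the Hox genes against 6.05% of all. Dim probes vary more, so the same count was made among genes of mean log2 signal between -5 and -3. In that range 3 of 10 Hox genes were at least 1.5-fold higher and none of the 10 was lower, where 3.54% of 4091 measured genes were higher and 7.72% lower.

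Measured against the scanner error, 6 Hox genes were higher in KO by more than 2 errors, 18.2% against 5.53% of all measured genes. They were Hoxa9, Hoxa11, Hoxb4, Hoxc10, Hoxc11 and Hoxd3. The scanner error rests mainly on a 10% multiplicative term, so it is much the same for most genes and leaves out the spread between probes. Hoxa9 passed although its probes gave 0.18 and 0.66. Hoxa6 and Hoxc8 were lower by more than 2 errors, 6.06% against 10.8% of all measured genes.

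Hoxc11 and its neighbour Hoxc12 read in opposite directions, though Hoxc12 was not well above background on the KO array. Hoxc11, which with its paralogs patterns the hindlimb and lower spine, had a relative signal of 0.0614 ± 0.00624 on the KO array and 0.0173 ± 0.00220 on the WT array. The log2 difference was 1.82 ± 0.23, or 3.54-fold higher in KO, and 28 of the 22719 measured genes lay above it. With the normexp background correction in place of the scanner's, it was 0.79 and no longer reached 2-fold. Normexp was run with an offset of 50 added to the signals of both arrays, which by itself shrinks differences of dim signals. Hoxc12, a gene of the posterior end that is also active in hair follicles, had a signal of 0.00510 on the KO array, not well above background, and 0.0101 on the WT array. On these signals it was 1.98-fold lower in KO, a ratio to a dim signal and not a lower limit. With normexp the difference of Hoxc12 was -0.24, and with loess scaling it was -0.84. Each of the genes rests on 1 spot per array.

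The Hoxc11 probe lies in the homeobox, the part of the gene that Hox genes have in common. The Hoxc12 probe begins near the end of the homeobox and runs on to the stop codon. The letters of both are shown for comparison. Capitals mark the bases that encode asparagine-arginine-arginine-methionine-lysine at the end of the DNA-reading helix of the homeodomain. The Hoxa6 probe is shown beside them because its capitals mark the core of the hexapeptide through which Hox proteins bind their partner Pbx. In each of them the motif was found in an open reading frame. Coordinates are those in the scanner files, on mouse build mm9, and each probe lies in coding sequence as judged by that frame.
Hoxc11, chr15:102787022-102787081, plus strand: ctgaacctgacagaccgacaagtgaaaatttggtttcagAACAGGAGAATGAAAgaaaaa
Hoxc12, chr15:102768889-102768948, plus strand: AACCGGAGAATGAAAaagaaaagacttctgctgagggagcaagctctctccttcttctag
Hoxa6, chr6:52158194-52158253, minus strand: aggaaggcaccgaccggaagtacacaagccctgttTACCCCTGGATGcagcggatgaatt
Lined up on the capitals, the Hoxc11 and Hoxc12 probes overlap by 21 bases, of which 18 are the same, 14 of them within the 15 capitals. Whether any of these probes also took up transcripts of another Hox gene was not tested.

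Hoxa11 was 1.64-fold higher in KO and was the measured Hox gene read at the most positions. It patterns the forearm, lower spine and uterus, and its probe was printed at 10 positions. The spots read between 0.101 and 0.116 on the KO array with a median of 0.107, and between 0.0577 and 0.0711 on the WT array with a median of 0.0667. All 10 spots were higher on the KO array, and the ranges did not overlap. The log2 difference was 0.71 ± 0.21, and over the 10 positions it ran from 0.53 to 0.88 with an SD of 0.09 between spots. The spots share the same labelled RNA, so they show the precision of the hybridisation and not that of the genotype. With the normexp correction the difference was 0.48, under 1.5-fold.

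**Figure D2:**
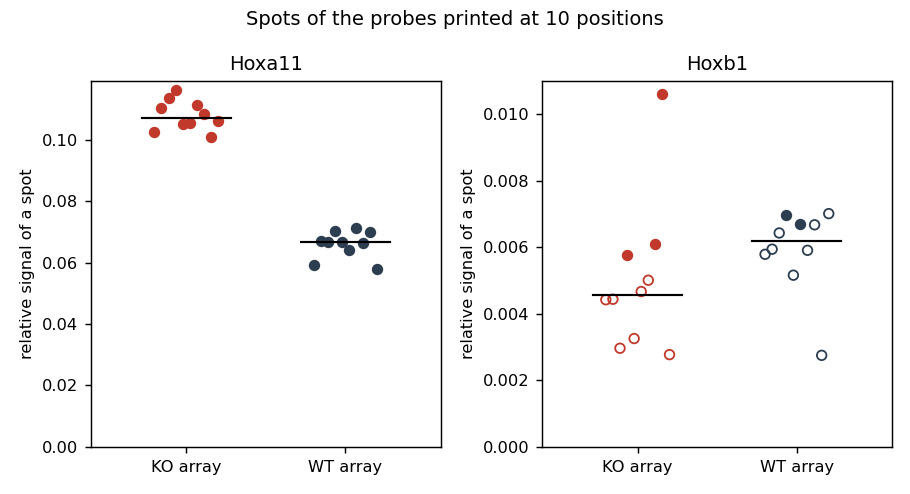
Relative signal (linear axis from 0, with its own scale in each panel) of each of the 10 spots of the Hoxa11 and Hoxb1 probes on the KO array and the WT array; filled points are well above background and lines are medians. The Hoxa11 spots lie between 0.101 and 0.116 in KO and between 0.0577 and 0.0711 in WT, without overlap, while those of Hoxb1 overlap.

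The other genes of paralogs 9 to 11, which serve the lower trunk and limbs, were mostly higher in KO as well. Hoxc10, expressed in the lumbar cord and hindlimb, read 0.0866 on the KO array and 0.0568 on the WT array, a difference of 0.61 ± 0.21, or 1.52-fold. With the normexp correction Hoxc10 was at 0.39. Hoxa10, a gene of the lumbar region and uterus, read 0.118 in KO and 0.0894 in WT, a difference of 0.40 ± 0.21. Hoxd10, which acts in hindlimb motor neurons, read 0.0681 in KO and 0.0611 in WT, a difference of 0.16 ± 0.21 that lay within its error. All 3 genes of paralog 10 were thus higher, with a median of 0.40.

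Hoxd11, partner of Hoxa11 in the forearm, was close to background at 0.00947 in KO and 0.00843 in WT, with a difference of 0.17 ± 0.33 and another probe below background on both arrays. It completed paralog 11, in which 3 of 3 genes were higher with a median of 0.71, although Hoxd11 was at -0.11 with the normexp correction. Paralog 9 was mixed, with 2 genes higher and 2 lower in KO. Hoxa9, also a regulator of blood progenitors, read 0.0902 in KO and 0.0674 in WT, a difference of 0.42 ± 0.15, and its probes gave 0.18 and 0.66. Hoxb9 read 0.332 in KO and 0.262 in WT, a difference of 0.34 ± 0.20. Hoxc9, which marks thoracic identity in motor neurons, read 0.966 in KO and 1.04 in WT, a difference of -0.10 ± 0.20. Hoxd9 read 0.200 in KO and 0.233 in WT, a difference of -0.22 ± 0.20.

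Hoxc13 differed between the genotypes by less than its error, while the hair genes listed as acting downstream of it were mostly lower in KO. This regulator of hair keratin genes read 0.680 ± 0.0680 on the KO array and 0.644 ± 0.0644 on the WT array, a difference of 0.08 ± 0.20. All 12 hair genes were measured, 11 of them were lower in KO, and 10 were at least 1.5-fold lower, against 6.05% of all measured genes. Their median was -0.77, and none reached 2-fold. The count at 1.5-fold was 8 under quantile, median and loess scaling and with normexp, and 9 with dim probes left in. Without bands of uneven rows on the slide 8 of the genes were measured, 7 of them at least 1.5-fold lower. The hair keratin Krt33b read 0.543 in KO and 1.07 in WT, a difference of -0.98, and Krt86 was at -0.94. At the other end were Foxn1, the hair regulator whose loss gives nude mice, at 0.14, and Krt85 at -0.49. The share of hair-forming cells in the samples was not measured.

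The trunk genes of paralogs 4 to 8 were all measured and went both ways, from -0.70 to 0.42, with a median of -0.08 and 5 of 15 higher in KO. Of the 15, 4 were higher and 4 lower by more than their scanner error, and 46.7% lay within it, against 58.0% of all measured genes. Hoxa6 was the gene furthest down, at 0.0228 in KO and 0.0370 in WT, a difference of -0.70 ± 0.22, or 1.63-fold lower. With the normexp correction it was at -0.45. Hoxc8, which acts in thoracic vertebrae and brachial motor neurons, read 0.0877 in KO and 0.124 in WT, a difference of -0.50 ± 0.21. In the opposite direction, Hoxb4, known for the expansion of blood stem cells, read 1.25 in KO and 0.936 in WT, a difference of 0.42 ± 0.20. Hoxc6 read 3.85 in KO and 2.92 in WT, a difference of 0.40 ± 0.20.

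No gene of paralogs 7 and 8 was higher in KO, except that Hoxb8 came to 0.01 when the arrays were scaled on the median of probes above background. The probes of Hoxa7, Hoxb7, Hoxc8 and Hoxd8 lie in bands of uneven rows on the slide, and without the bands 1 of the 5 genes, Hoxb8, was left. The only probes of Hoxa2, Hoxa10, Hoxb5, Hoxc5, Hoxc13, Hoxd9 and Hoxd10 lie in such bands too. Over probes of mean log2 signal -5 to -3, the SD of the log2 difference was 0.41 in the bands and 0.40 outside. Above -3 it was 0.29 in the bands and 0.30 outside. Hoxa7 read 3.08 in KO and 3.65 in WT, a difference of -0.25, and Hoxb7 read 0.883 in KO and 1.09 in WT, a difference of -0.30, both just beyond their errors of 0.20. Hoxb8, whose loss makes mice groom their skin bare, read 0.560 in KO and 0.574 in WT, a difference of -0.03. Hoxd8 read 1.32 in KO and 1.40 in WT, a difference of -0.08. The Hoxb8 and Hoxd8 values lay within their errors.

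The genes of paralogs 4 to 6 that remain were within or near the scanner error. Hoxc4 read 2.20 in KO and 1.81 in WT, a difference of 0.28 ± 0.20, and Hoxd4 read 0.695 in KO and 0.598 in WT, a difference of 0.22 ± 0.20. Hoxa4 read 0.0657 in KO and 0.0732 in WT, a difference of -0.16. Hoxa5, needed for the lung and airway, read 0.195 on both arrays, and the sign of its difference turned with the scaling. Hoxb5 read 0.298 in KO and 0.331 in WT, a difference of -0.15, and Hoxb6 read 0.563 in KO and 0.641 in WT, a difference of -0.19. Hoxc5 read 0.242 in KO and 0.212 in WT, a difference of 0.19.

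The anterior genes of paralogs 1 to 3, best known from the hindbrain and branchial arches, had a median of 0.10 with 5 of 7 higher in KO, and 1 of the 7 went past its error. That gene was Hoxd3, which shapes the first neck vertebra, at 0.0742 in KO and 0.0503 in WT, a difference of 0.56 ± 0.21. With the normexp correction it was at 0.27. Hoxa3, needed for thymus and parathyroid, read 0.712 in KO and 0.633 in WT, a difference of 0.17. Hoxb2 read 1.39 in KO and 1.30 in WT, a difference of 0.10.

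The probes of Hoxb3 together gave 0.201 in KO and 0.188 in WT, a difference of 0.10 ± 0.14, with -0.04 and 0.24 for the probes apart. Hoxa2, which sets the identity of the hyoid arch, read 0.238 in KO and 0.259 in WT, a difference of -0.13. Hoxd1, active in pain-sensing neurons of the mouse, read 0.0210 in KO and 0.0179 in WT, a difference of 0.23 ± 0.25, and -0.06 with the normexp correction.

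**Figure D3:**
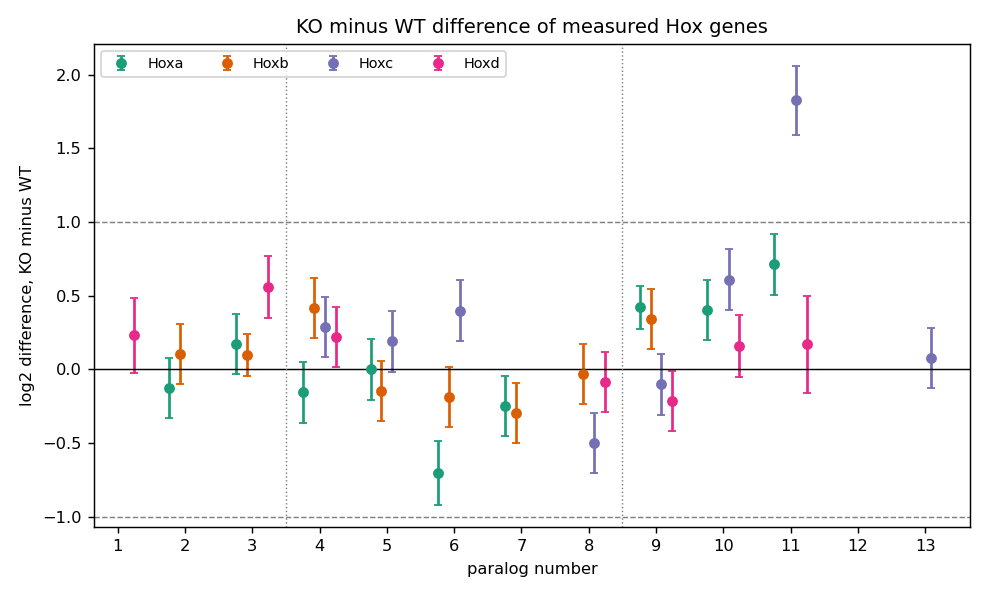
Log2 difference, KO minus WT, of measured Hox genes by paralog number (horizontal axis) and cluster (colour), with the scanner error as bars, 2-fold as dashed lines and dotted lines between paralogs 1 to 3, 4 to 8 and 9 to 13. Hoxc11 at 1.82 lies past 2-fold, the genes of paralogs 10 and 11 all lie above 0 (Hoxd11 not with normexp), and those of paralogs 7 and 8 all lie below 0 (Hoxb8 not with median scaling).

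Arranged along the axis, the measured genes of paralogs 9 to 13 had a median difference of 0.34 with 9 of 11 higher in KO. Those of paralogs 4 to 8 were at -0.08 with 5 of 15 higher, and those of paralogs 1 to 3 at 0.10 with 5 of 7 higher, where 43.1% of all measured genes were higher. This division was drawn after the values had been seen. It is not independent of the single genes above. Leaving out probes in bands of uneven rows on the slide, which hold 12 of the 44 Hox probes, left 6 of 7 genes of paralogs 9 to 13 higher, with a median of 0.61, and brought paralogs 4 to 8 to 0.0025. With the brightest probe of each gene, paralogs 9 to 13 were at 0.18, beside 0.17 for paralogs 1 to 3. By cluster, the medians were -0.06 in cluster a, 0.03 in b, 0.24 in c and 0.17 in d.

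The proteins that bind DNA with Hox factors, of the Pbx, Meis and Pknox families, showed no common direction. Of 9 genes, 8 were measured, 4 of them higher and 4 lower in KO, with a median of 0.02, and 6 were higher after quantile normalization. Meis2 at 0.52 and Meis1 at 0.49 were the highest of those measured on both arrays. Pknox2 read 0.105 in KO and 0.166 in WT, 1.59-fold lower, the only measured member past 1.5-fold. Its difference of -0.67 was -0.55 with the normexp correction, under 1.5-fold, and its probe lay in a band of uneven rows. Pbx4 was above background on the KO array alone, and its log2 difference of 0.58 is taken to a dim WT signal.

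The regulators that set Hox expression through chromatin differed little. Of the Polycomb repressors 15 of 16 were measured, 8 higher and 7 lower in KO, with a median of 0.06. They ran from Phc1 at -0.19 and Rnf2 at -0.13 to Cbx8 at 0.30 and Ezh2, the methyltransferase of the complex, at 0.51. Of the activating and boundary factors, among them the Kmt2 methyltransferases and Ctcf, 13 of 15 were measured. All 13 were above 0, with a median of 0.13, where 43.1% of all measured genes were above 0. Most of the 13 lay within their scanner errors. The count was 9 of 13 with the normexp correction, 11 of 13 with the brightest probe, and 9 of 10 without the bands. Dpy30 and Cdx1 were lowest at 0.01, Gdf11 was at 0.33 and Men1 at 0.37, and none reached 1.5-fold. Cdx2 and Cdx4, activators of posterior Hox genes in the embryo, were below background on both arrays.

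Among other transcripts within the clusters and the genes beside them, no measured member differed by 1.5-fold, although Hoxa11os came near it. Of 8 antisense or other cluster transcripts with a probe, 6 were measured, with a median of -0.21 and 2 higher in KO. Hoxa11os, transcribed against Hoxa11, read 0.109 in KO and 0.0741 in WT, a difference of 0.55 that passed 1.5-fold, at 0.59 to 0.62, under quantile, median and loess scaling. With the normexp correction Hoxa11os was at 0.37, and it had no value when the bands of uneven rows were left out. Hoxb5os was at 0.15. Hoxaas3 was at -0.38 and Hoxaas2 at -0.24, and Hottip and Evx1os were below background. Of the 19 protein-coding genes flanking the clusters 17 were measured, with a median of -0.04, 7 higher and 10 lower, and 10 higher after quantile normalization. They ran from Calcoco2 at -0.36 and Hibadh at -0.25 to Smug1 at 0.21 and Skap1 at 0.48, and Evx1 and Evx2, at the posterior ends of clusters a and d, were below background.

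Other transcription factors that mark position in skin and mesenchyme were divided. Of 28, 26 were measured, 12 higher and 14 lower in KO, with a median of -0.06. Tbx5, the forelimb factor, read 0.0346 in KO and 0.0104 in WT, a difference of 1.73 ± 0.28, or 3.33-fold higher, and of 0.48 with the normexp correction, under 1.5-fold. It was the only one past 2-fold, was close to background in WT, and its probe also lay in such a band. Emx2, which acts in the shoulder blade, was at 0.56, and at 0.22 with the normexp correction.

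**Figure D4:**
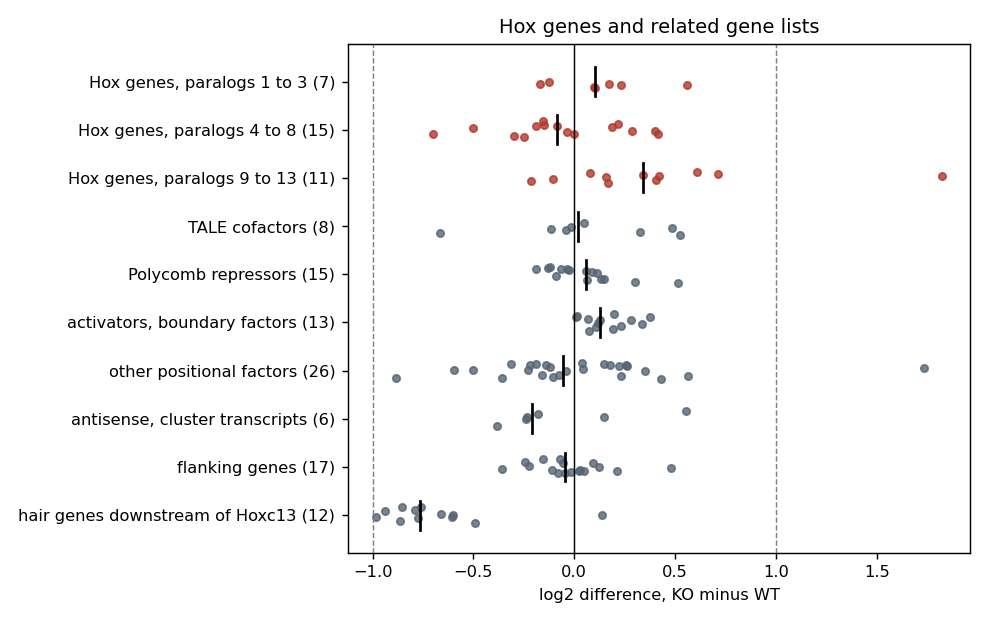
Log2 difference, KO minus WT, of every measured member of the Hox genes (red, by paralog number) and of the related gene lists (grey), with the number of genes in brackets; points are genes, short bars are medians and dashed lines mark 2-fold. The median was 0.34 for paralogs 9 to 13, 0.13 for activators and boundary factors, and -0.77 for the hair genes listed downstream of Hoxc13.

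Markers of muscle and fat were lower in KO, while those of keratinocytes and fibroblasts lay close together. Keratinocyte markers, 7 of 7 measured, had summed signals of 420 in KO and 415 in WT and a median difference of 0.03. Those of dermal fibroblasts, 8 of 8 measured, summed to 324 in KO and 331 in WT, with a median of -0.03 that became 0.05 after quantile normalization. All 11 muscle markers were lower in KO, with sums of 130 in KO and 225 in WT and a median of -0.86. Of these, 3 were at least 2-fold lower, against 1.36% of all measured genes. The lowest was at -2.26, and Ckm, 2.35-fold lower, differed least of the 3. All 8 adipocyte markers were lower as well (7 after quantile normalization), with sums of 52.5 in KO and 80.1 in WT and a median of -0.71. Of the 8, 2 were at least 2-fold lower, and the lowest was at -1.76.

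Neuron and spinal cord markers, of which 7 of the 10 with a probe were measured, summed to 3.56 in KO and 4.07 in WT with a median of -0.01, and Nefl and Nefm were among those below background. Cartilage and bone markers, 5 of 7 measured, summed to 0.207 in KO and 0.172 in WT with a median of 0.38, or 0.065 with the normexp correction and 0.18 without the bands of uneven rows. Among them Col2a1 was 2.19-fold higher in KO, a difference of 1.13 that was 0.50 with the normexp correction, while Matn1 and Col10a1 were below background. Of the 5 measured, 3 were higher in KO and 2 lower, Acan at -0.33 and Bglap at -0.39. Schwann cell markers had a median of -0.15, melanocyte markers -0.38, endothelial markers -0.21 and hair matrix markers -0.49. The hair matrix markers were split, with 4 keratins lower in KO and 3 others higher, Msx2 at 0.04, Foxn1 at 0.14 and Lef1 at 0.20. Without the bands the melanocyte median was -0.22 and the hair matrix median -0.24, and with the brightest probe of each gene the hair matrix median was -0.17. Krt31, Krt33a, Krt35, Krt85 and Foxn1 stand on both hair lists. The part of any of these cell types in the Hox differences was not tested.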

How the data were processed

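Per the file headers, the scanner files hold for each spot the intensity processed by Agilent Feature Extraction 11.5.1.1 (also named in the submitters' processing notes), with background subtracted, its error, which includes a 10% multiplicative term, and flags for outliers, saturation and signal well above background. The series matrix, as deposited, gives each spot a ratio, which equalled the processed intensity divided by a constant per array, 2080 for KO and 1906 for WT, with no centring (medians 0.0840 for KO and 0.0855 for WT). It was used as an alternative.

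Control spots and 192 outlier spots were left out. Processed intensities were taken to log2 and scaled by each array's 75th percentile over 39417 probes, 1923 for KO and 1747 for WT. Spots of a probe were averaged, and a probe counted as above background if most of its spots did. Genes were given the mean of their probes that both arrays measured well above background without saturation. For a gene above background on 1 array, the fold was taken against the dim probe's signal. If higher, the lowest signal well above background on the same array was used instead. For Hoxc12 and Pbx4 it was the dim probe's own signal, so their folds are ratios and not lower limits. The precision is limited by the number of arrays. Between spots of a probe the SD of the log2 difference had a median of 0.06 (335 probes), or 0.10 for 45 dim probes, and between probes of a gene it was 0.25 (5176 genes).

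Probes were named by accession (28325), symbol (2204) or synonym (174) through a RefSeq gene table of GRCm38.p6, and 8714 kept the file's name. Python 3.11.15 with pandas 2.3.3 was used, and limma 3.58.1 for normexp (offset 50). The calculation was tested on simulated data. The rule for named genes took every Hox gene, up to 2 members at each end of each list, members at least 2-fold apart, and Sdr9c7; of the cell type marker lists single genes were picked after their values were seen. The Hox genes, the lists and the bands of uneven rows were chosen with earlier results of these data known. A few genes and a probe sequence that the rules would name are counted but not reported here.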

Additional observations from a re-analysis of the deposited data

How the results depend on the processing

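Across 10 alternative settings 31 to 33 of the 33 genes kept their sign (21 of 22 without the bands of uneven rows). With the normexp correction of the background, 0 Hox genes were at least 2-fold higher in KO, in place of 1, and 1 was at least 1.5-fold higher, in place of 3. Over all genes, those above background on 1 array included, it gave 39 genes at least 2-fold higher and 111 lower, against 253 and 475. Leaving dim probes in gave 814 and 978. Normexp also brought the Hox median and that of paralogs 1 to 3 to 0.025, each against 0.10. Without the bands the Hox median was 0.20, that of paralogs 9 to 13 was 0.61 against 0.34, and that of paralogs 4 to 8 turned to 0.0025 against -0.08. With the brightest probe of each gene, paralogs 9 to 13 were at 0.18 and paralogs 1 to 3 at 0.17, and with dim probes left in, paralogs 9 to 13 were at 0.25. The offset of 50 in normexp shrinks differences of dim signals by arithmetic, so normexp cannot decide whether those differences hold. The cause of the other moves was not tested. Over all settings Hoxc11 ran from 0.79 to 1.91, Hoxa11 from 0.48 to 0.78, Hoxc10 from 0.39 to 0.66 and Hoxa6 from -0.70 to -0.45. The scalings moved the median of all genes by at most 0.04. Counts at 1.5-fold, the medians by paralog and a looser rule for Hoxb1 were chosen after seeing the data. No paired analysis was possible because each genotype had 1 array, and no array could be left out for the same reason. Near background, where Hoxc12, Hoxd11, Hoxd1 and, on the WT array, Hoxc11 lay, the signal limits what can be read.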
